A study of Homo sapiens with 12 samples.

Results

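The histone genes of ECC1, a human endometrial cancer cell line, were taken as every entry of the deposited expression table whose symbol began with HIST1H, HIST2H, HIST3H, H1F, H2AF or H3F. This rule found 84 of the 34595 entries. Of these, 69 carried a HIST symbol and belong to the replication-dependent gene clusters, and 15 were replacement histones. RNA had been measured on 12 Illumina BeadArrays, 3 in each of 4 groups, to ask how estradiol and the gene MTDH affect expression. The groups were parental cells and cells labelled as MTDH knockout, each without estradiol or with 10 nM of it for 24 h, and all had first been kept in RPMI1640 medium with charcoal-stripped serum for 24 h. The labels do not say how the knockout was made or whether it is 1 clone. Nor do they say if the replicates came from separate cultures; p-values here measure the spread among these 12 arrays alone, and that spread may be technical.

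Histones package DNA into nucleosomes, each a core of the histones H2A, H2B, H3 and H4 with the linker histone H1 bound outside. Replication-dependent histone genes lie in clusters and are transcribed mainly in S phase. Their messenger RNAs usually end in a stem-loop in place of a poly(A) tail, although several HIST genes are known to make polyadenylated transcripts as well. Replacement histones are encoded by single genes with mostly polyadenylated messages, and most are made throughout the cell cycle. The class as taken here includes H2A.X, H2A.Z, macroH2A, H3.3 and H1.0. In a proliferating epithelial line such as ECC1 both classes are needed, the first to cover newly copied DNA and the second to replace or specialise nucleosomes.

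MTDH was read first, since it checks the labels. On the 12 arrays it read 11.43, 11.18 and 10.78 (log2 signal) in untreated parental cells, 10.83, 10.96 and 8.97 in parental cells with estradiol, 8.57, 8.53 and 8.59 in untreated knockout cells, and 10.94, 8.49 and 8.49 in knockout cells with estradiol. The array labelled parental estradiol replicate 3 thus had a level near the knockout arrays, and the array labelled knockout estradiol replicate 1 one near the parental arrays. Counts and called genes are therefore given from the fit of all 12 arrays and from a fit without these 2. A gene was tested where its signal passed the median of the whole table, 6.82, on at least 3 arrays, and it is said to rise or fall where limma's adjusted p over all 19670 tested genes was under 0.05. Array medians were between 6.78 and 6.86. EPCAM, CDH1 and KRT8, which mark epithelial cells, had mean levels of 12.6, 12.5 and 12.7, while KRT18 was at 6.92, near the table's median. Among markers of other cell types, PTPRC and CD3E (leukocytes), DCN, LUM and PDGFRB (fibroblasts) and PECAM1, CDH5 and TEK (endothelium) did not pass the filter.

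Of the 84 histone genes, 36 were tested: 26 of the 69 HIST genes and 10 of the 15 replacement histones. The HIST1 cluster had 18 of its 55 members tested, HIST2 had 7 of 11 and HIST3 had 1 of 3. On no array did 31 HIST genes and 4 replacement histones exceed the table's median. The highest mean of an untested member was 6.75 for HIST genes and 6.74 for replacement histones, so the data hold no usable change for these 48 genes. The untested replacement histones were H1FNT, H1FOO, H2AFB1, H2AFB2 and H2AFB3, which are known from germ cells. No member of a list of germ-line histone genes was tested. Of 8 HIST genes known to make polyadenylated transcripts as well, 6 were tested. The way in which the RNA was primed for labelling is not given in the sources used here, and its part in the levels of HIST genes was not tested. Some HIST genes have nearly identical copies, so a probe may read more than its named gene.

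**Figure D1:**
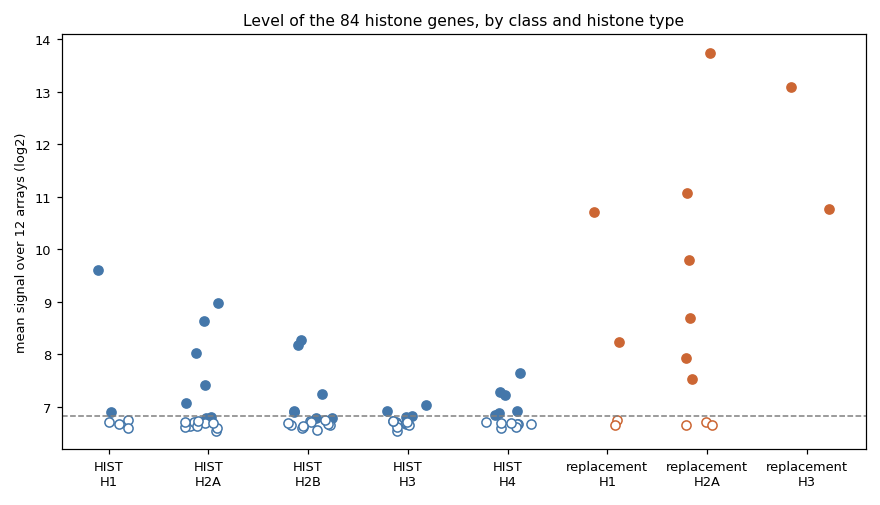
Mean signal over the 12 arrays (log2, vertical axis) of each of the 84 histone genes, grouped by class and histone type. Filled points passed the filter, open points did not, and the dashed line is the table's median of 6.82. The spread of the open points ends near this line; probes differ in brightness, so heights of different genes are not an order of RNA amount.

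In parental cells 5 of the 10 tested replacement histones and 3 of the 26 tested HIST genes fell with estradiol. With all 12 arrays, 8 of the 36 tested histone genes fell and 0 rose, against backgrounds of 5.87% of all tested genes lower and 1.12% higher. The replacement histones were H1F0, H1FX, H2AFJ, H2AFX and H2AFY, and the HIST genes were HIST1H1C, HIST2H2AC and HIST2H2BE. In the fit without the 2 arrays 11 fell and 0 rose, against 9.14% lower and 1.61% higher, with H2AFY2, HIST2H2AA4 and HIST1H2BD added. The median difference was −0.25 (log2) over the replacement histones, −0.07 over the HIST genes and −0.05 over all tested genes. Most tested HIST genes had signals close to the table's median, where a change would be hard to see. With the filter at the 67th percentile 12 HIST genes and all 10 replacement histones were left, and again 3 and 5 fell and 0 rose, against 9.87% of all genes lower and 1.75% higher. The median of those 12 HIST genes was −0.17, against −0.09 over all genes so filtered. In bulk samples fewer cells that express a gene and less RNA per cell cannot be told apart.

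H1F0 encodes H1.0, a linker histone that accumulates in cells that stop dividing. It read 10.91, 10.96 and 10.95 in untreated parental cells, 10.55, 10.51 and 10.58 in parental cells with estradiol, 10.86, 10.70 and 10.72 in untreated knockout cells, and 10.49, 10.60 and 10.56 in knockout cells with estradiol. In each line every estradiol array lay below every untreated one. The fall in parental cells was −0.39 ± 0.060 (log2 difference ± SE, n = 3 against 3; limma adjusted p = 0.00178), a 1.31-fold decrease. In knockout cells the difference was −0.21 ± 0.060, which missed the threshold (limma adjusted p = 0.0775). Averaged over both lines H1F0 fell by 0.30 (limma adjusted p = 0.000527), and both the parental fall and the averaged one passed under all 21 alternative settings. Without the 2 arrays the parental fall was −0.41 ± 0.072 (n = 3 against 2; limma adjusted p = 0.00138).

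Another 2 linker histones fell in parental cells. H1FX, which encodes the linker histone H1.10, read 8.65, 8.70 and 8.36 without and 8.19, 8.02 and 8.10 with estradiol. HIST1H1C encodes H1.2, an H1 subtype whose gene also makes polyadenylated transcripts. Its signal was 9.99, 10.05 and 9.65 without and 9.42, 9.28 and 9.49 with estradiol. For neither gene did the groups overlap. The differences were −0.47 ± 0.098 for H1FX (limma adjusted p = 0.0132) and −0.50 ± 0.11 for HIST1H1C (limma adjusted p = 0.0182), and they passed under 18 and 17 of the 21 alternatives. In the fit of 10 arrays they were −0.46 ± 0.10 and −0.55 ± 0.12 (limma adjusted p = 0.00730 and 0.00656). In knockout cells HIST1H1C read 9.64, 9.60 and 9.78 without and 9.37, 9.62 and 9.24 with estradiol. These groups overlapped, and the difference of −0.26 ± 0.11 missed the threshold (limma adjusted p = 0.255). HIST1H1A, the other tested HIST gene for H1, lay between 6.75 and 7.04 on all arrays, at the table's median.

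Among H2A replacement histones, H2AFX encodes H2A.X, which is phosphorylated at DNA breaks. It read 9.19, 9.04 and 8.87 in untreated parental cells and 8.79, 8.56 and 8.55 with estradiol. H2AFJ, which encodes H2A.J, a variant known to accumulate in senescent cells, was at 8.29, 8.26 and 7.98 without and 7.81, 7.65 and 7.81 with estradiol. H2AFY encodes macroH2A1, a histone with a large additional domain that is found in silent chromatin. Its values were 11.22, 11.33 and 11.27 without and 11.04, 10.92 and 11.03 with estradiol. The groups of all 3 genes were separate in parental cells. Falls of −0.40 ± 0.10 for H2AFX, −0.42 ± 0.10 for H2AFJ and −0.28 ± 0.060 for H2AFY passed the test (limma adjusted p = 0.0300, 0.0263 and 0.0147), under 15, 15 and 17 of the 21 alternatives. In the fit of 10 arrays they were −0.35 ± 0.11, −0.45 ± 0.11 and −0.29 ± 0.074 (limma adjusted p = 0.0424, 0.0154 and 0.0161). In knockout cells the same differences were 0.10 ± 0.10, −0.17 ± 0.10 and −0.03 ± 0.060, and none passed (limma adjusted p = 0.704, 0.462 and 0.861).

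The other replacement histones did not pass in parental cells with all 12 arrays. H2AFZ and H2AFV encode the H2A.Z forms found at promoters. H2AFZ read 13.71, 13.88 and 13.64 without and 13.63, 13.74 and 13.71 with estradiol, and these groups overlapped. H2AFV went from 7.75, 7.88 and 7.63 to 7.50, 7.56 and 7.53, a difference of −0.22 ± 0.080 (limma adjusted p = 0.123). H3F3A and H3F3B both encode H3.3, the H3 form deposited outside replication. Their differences were −0.08 ± 0.062 and −0.18 ± 0.11 (limma adjusted p = 0.526 and 0.419). H2AFY2, the macroH2A2 gene, was at 9.86, 9.83 and 9.71 without and 9.40, 9.39 and 9.96 with estradiol. The last value is that of the array whose MTDH level goes against its label, and without the 2 arrays the difference was −0.40 ± 0.078 (limma adjusted p = 0.00307).

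**Figure D2:**
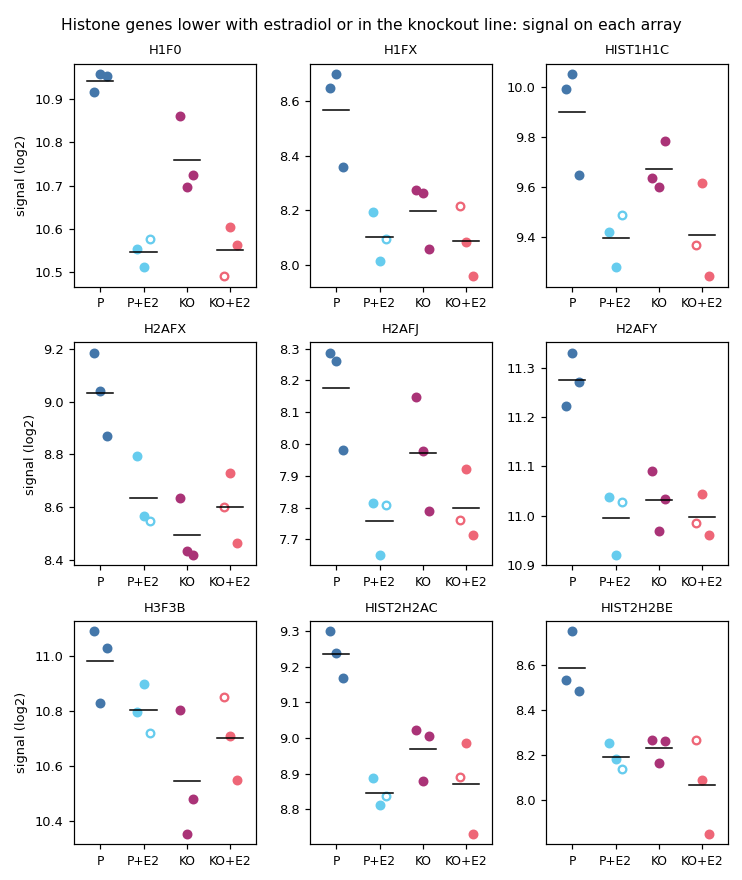
Signal (log2, vertical axis, its range set for each gene) of 9 histone genes on each array, in parental (P) and knockout (KO) cells without and with estradiol (E2). Points are arrays, black lines are means of 3 arrays, and open points are the 2 arrays whose MTDH level goes against their label. The 3 untreated parental arrays are highest in most panels; for H1F0 they lie between 10.91 and 10.96 and the 6 estradiol arrays between 10.49 and 10.60.

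HIST2H2AC and HIST2H2BE, an H2A and an H2B gene of the HIST2 cluster, fell together. On GRCh38.p14 their starts lie 236 bases apart on chromosome 1, on opposite strands, so that the DNA between them lies before both starts. Whether it acts as a promoter of both genes here was not tested. HIST2H2AC read 9.30, 9.24 and 9.17 in untreated parental cells, 8.89, 8.81 and 8.84 with estradiol, 9.02, 8.88 and 9.00 in untreated knockout cells, and 8.89, 8.99 and 8.73 in knockout cells with estradiol. HIST2H2BE read 8.53, 8.75 and 8.48, then 8.25, 8.18 and 8.14, then 8.27, 8.16 and 8.26, then 8.27, 8.09 and 7.85 in the same order. For each gene the untreated parental arrays lay above all 9 others. Estradiol lowered HIST2H2AC by −0.39 ± 0.073 and HIST2H2BE by −0.40 ± 0.097 in parental cells (limma adjusted p = 0.00625 and 0.0258). The fall of HIST2H2AC passed under all 21 alternative settings, and that of HIST2H2BE under 14 of them. The HIST2H2BE call was lost with quantile normalization and on leaving out untreated parental replicate 1 or 2, or any parental estradiol array. Without the 2 arrays the falls were −0.39 ± 0.084 and −0.37 ± 0.090 (limma adjusted p = 0.00702 and 0.0136). In knockout cells the differences were −0.10 ± 0.073 and −0.16 ± 0.097, and neither passed (limma adjusted p = 0.577 and 0.458).

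The 150 bases before the start of 6 called members are given from RefSeq, GRCh38.p14, because they show the promoter letters of genes of both classes that moved. Each reads 5′ to 3′ on the gene's strand. Capitals mark CCAAT boxes, TATAAA boxes, the octamer ATTTGCAT that is typical of H2B genes, and the AAACACA box that is typical of H1 genes, each searched on both strands. No capitals of different motifs overlap.
HIST2H2AC (chr1:149886768-149886917, plus strand): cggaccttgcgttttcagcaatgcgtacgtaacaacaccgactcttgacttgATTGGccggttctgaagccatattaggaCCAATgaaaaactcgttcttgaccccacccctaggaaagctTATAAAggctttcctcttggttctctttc
HIST2H2BE (chr1:149886683-149886832, minus strand): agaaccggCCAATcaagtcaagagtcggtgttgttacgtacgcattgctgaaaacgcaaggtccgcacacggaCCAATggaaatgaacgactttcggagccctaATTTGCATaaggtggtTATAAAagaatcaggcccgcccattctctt
HIST1H1C (chr6:26056471-26056620, minus strand): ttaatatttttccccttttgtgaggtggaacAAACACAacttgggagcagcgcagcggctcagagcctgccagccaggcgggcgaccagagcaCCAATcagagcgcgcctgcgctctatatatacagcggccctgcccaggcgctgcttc
H2AFX (chr11:119095466-119095615, minus strand): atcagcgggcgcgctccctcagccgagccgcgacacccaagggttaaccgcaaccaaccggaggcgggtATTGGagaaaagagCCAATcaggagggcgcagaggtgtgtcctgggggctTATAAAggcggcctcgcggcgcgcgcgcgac
H1FX (chr3:129316287-129316436, minus strand): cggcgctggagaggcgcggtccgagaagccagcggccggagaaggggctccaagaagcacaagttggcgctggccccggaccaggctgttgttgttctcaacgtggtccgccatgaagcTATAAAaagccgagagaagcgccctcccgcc
H2AFY2 (chr10:70052696-70052845, plus strand): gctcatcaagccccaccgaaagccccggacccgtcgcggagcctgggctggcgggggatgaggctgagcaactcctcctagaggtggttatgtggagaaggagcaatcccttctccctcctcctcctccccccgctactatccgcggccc

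Of the 84 histone genes, 79 matched 1 RefSeq gene and 66 of these had exactly 1 promoter in the table, 55 of HIST genes and 11 of replacement histones. The windows of HIST2H2AC and HIST2H2BE overlap, so that the left CCAAT of the H2B sequence is the ATTGG of the H2A sequence read on the other strand. CCAAT was present in 46 of the 55 HIST promoters and 8 of the 11 replacement promoters, against 23.5% of all 35116 promoters. H4 genes differed within the class, with CCAAT in 3 of 12. TATAAA was present in 33 of 55 HIST and 4 of 11 replacement promoters, against 6.71% of all. The octamer stood in 8 of 11 H2B promoters, 5 of 16 HIST promoters for H2A and that of H3F3B, against 0.988% of all. AAACACA stood in 5 of 6 HIST promoters for H1, against 2.71%. H2AFX, a replacement histone, carries CCAAT and TATAAA as the HIST genes do, while the H2AFY2 window holds no match. GGGCGG, a motif that SP1 binds, stood in 15 of 55 HIST and 2 of 11 replacement promoters, against 36.8% of all, and is not capitalised. These matches are descriptions of letters, not of binding.

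The remaining H2A genes of the HIST2 cluster, HIST2H2AA3 and HIST2H2AA4, are nearly identical copies, and their values are uncertain as to which gene they read. HIST2H2AA4 was at 9.08, 9.06 and 8.66 without and 8.40, 8.41 and 8.79 with estradiol in parental cells. The last value again came from the array against its label. With all arrays the difference of −0.40 ± 0.13 missed the threshold (limma adjusted p = 0.0864), and without the 2 arrays it was −0.53 ± 0.11 (limma adjusted p = 0.00650). HIST2H2AA3 changed from 8.29, 8.32 and 7.99 to 7.81, 8.06 and 7.76, and missed the threshold (limma adjusted p = 0.0910, and 0.134 without the 2 arrays). Of 18 tested HIST1 genes only HIST1H1C fell with all arrays, and HIST1H2BD was added without the 2. By the sign of the difference 10 of these 18 were lower with estradiol, against 5 of the 7 HIST2 genes and 66.8% of all tested genes. The HIST2H3D signal varied least of all tested members, from 6.86 to 6.97 over all arrays (SD 0.042), and that of H2AFY2 most (SD 0.32).

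In knockout cells 0 histone genes rose or fell with estradiol by limma in either fit. The backgrounds of called genes were 2.69% lower and 1.18% higher with all arrays, and 4.26% and 2.54% without the 2. At an unadjusted p under 0.05 there were 4 of 36 histone genes, against 3226 of all 19670 tested genes. Without the 2 arrays there were 3 of 36, against 3673 of 19670. Both shares of histone genes were below those of all tested genes. The median difference was 0.01 over the replacement histones and −0.04 over the HIST genes, against −0.02 over all tested genes. H2AFZ read 13.68, 13.69 and 13.64 without and 13.81, 13.96 and 13.73 with estradiol, so that the groups were separate. Its difference of 0.16 ± 0.075 missed the threshold (limma adjusted p = 0.294). H3F3A likewise lay higher on every estradiol array, by 0.11 ± 0.062 (limma adjusted p = 0.435). H1F0 (above), H2AFY2 and HIST1H2BD lay lower on every estradiol array, and none passed. H2AFY2 went from 10.22, 10.06 and 10.07 to 9.20, 10.02 and 9.87, of which 9.20 is the array with a parental MTDH level. Without the 2 arrays its difference was −0.17 ± 0.078 (limma adjusted p = 0.260).

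Whether the response differed between the lines was tested by the interaction term. With all arrays 0 of the 36 histone genes passed by limma, against a background of 0.00508% higher and 0 lower. In the other fit it was 0 again, against 0.483% higher and 0.269% lower. In each fit 7 of 36 had an unadjusted p under 0.05. Over all 19670 tested genes this held for 2069 with all arrays and 2683 without the 2. The interaction was positive, a smaller fall or a rise in the knockout line, in 9 of 10 replacement histones with all arrays and 10 of 10 without the 2. Its median over them was 0.25 in both fits, against 0.03 and 0.09 over the HIST genes and 0.02 and 0.05 over all tested genes. A positive sign was more common than a negative one among all tested genes too, at 57.2% with all arrays. The interactions of all genes use the same untreated parental arrays, so their signs are not independent of each other. On those arrays the replacement histones lay above their means over all arrays, on average by 0.23, 0.23 and 0.10. H2AFX had the smallest unadjusted p of the histone genes, with an interaction of 0.50 ± 0.14 (limma adjusted p = 0.208). A fall that passed in parental cells is therefore not shown to differ from that in knockout cells.

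Averaged over both lines, estradiol lowered 7 of the 36 tested histone genes and raised 0, against backgrounds of 8.76% lower and 1.85% higher. They were H1F0, H1FX, H2AFJ and H2AFY of the replacement histones and HIST1H1C, HIST2H2AC and HIST2H2BE of the HIST genes. The fall of HIST1H1C was −0.38 ± 0.080 (limma adjusted p = 0.00764) and passed under all 21 alternatives, as did that of HIST2H2AC, −0.25 ± 0.051 (limma adjusted p = 0.00772). The falls of HIST2H2BE, H1FX, H2AFJ and H2AFY passed under 19, 17, 14 and 11 of them, and that of H2AFY was the smallest, −0.16 ± 0.043 (limma adjusted p = 0.0316). Leaving out the 2 arrays, 10 fell and 0 rose, against 11.8% lower and 2.56% higher, with H2AFY2, HIST1H2BD and HIST2H2AA4 added.

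**Figure D3:**
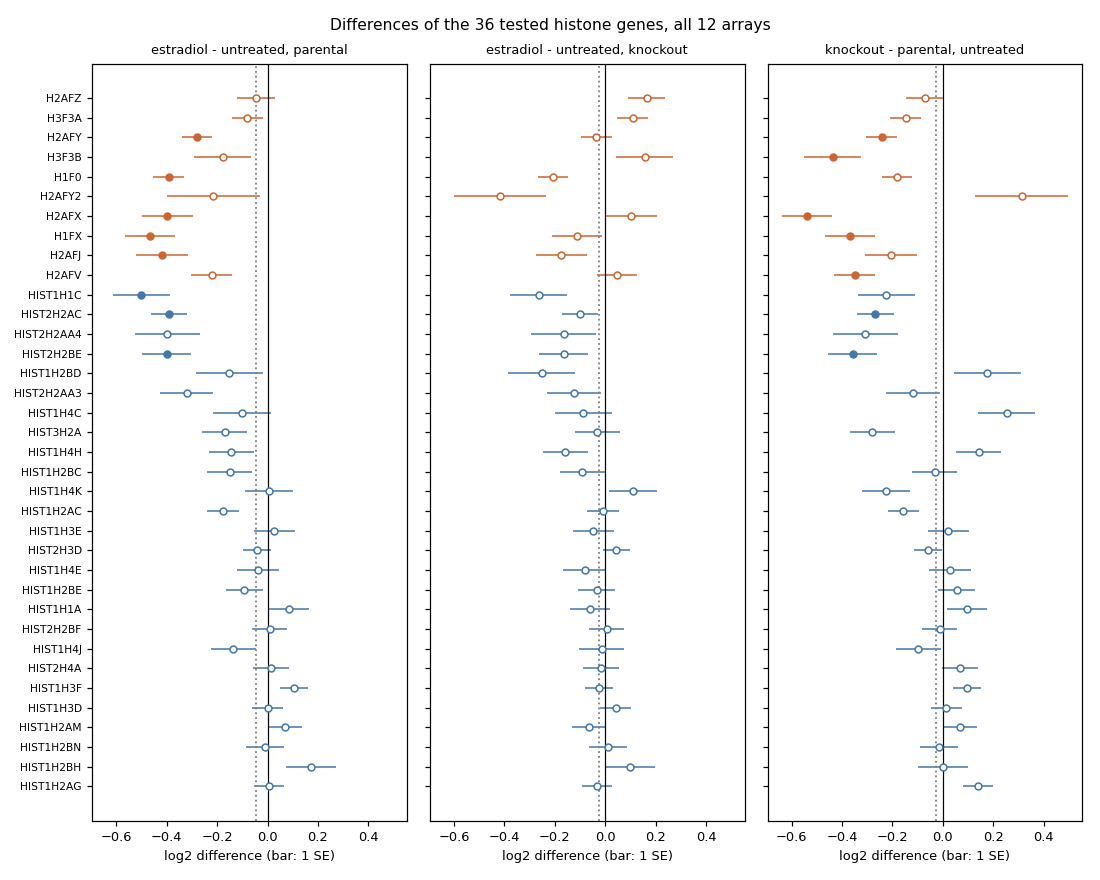
Log2 difference (horizontal axis, with bars of 1 SE) of each of the 36 tested histone genes in 3 comparisons, all 12 arrays, replacement histones in orange above HIST genes in blue, each class ordered by mean signal. Filled points passed limma's test, and the dotted line is the median of all tested genes. The filled points are all to the left of 0, in the left and right panels, and the centre panel (knockout cells) has none.

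Untreated knockout cells had lower levels of 5 of 10 replacement histones and 2 of 26 HIST genes than untreated parental cells. With all arrays 7 of 36 histone genes were lower and 0 higher, against backgrounds of 8.63% lower and 2.31% higher. They were H2AFX, H2AFV, H2AFY, H3F3B and H1FX of the replacement histones and HIST2H2AC and HIST2H2BE of the HIST genes. Leaving out the 2 arrays, 9 were lower and 2 higher, against 13.6% lower and 5.98% higher. The median difference was −0.22 over the replacement histones, −0.01 over the HIST genes and −0.03 over all tested genes. With the filter at the 67th percentile the medians were −0.22, −0.19 and −0.08, and 2 of 12 HIST genes and 5 of 10 replacement histones were lower, against 14.9% lower and 3.57% higher. This comparison and that of estradiol in parental cells use the same 3 untreated parental arrays, so their values are given side by side and not as 2 independent results.

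H2AFX showed the largest difference of the replacement histones. Untreated knockout cells read 8.63, 8.43 and 8.42, below all 3 untreated parental arrays. The difference was −0.54 ± 0.10 (limma adjusted p = 0.00806), a 1.45-fold decrease, and passed under all 21 alternatives. Its estradiol difference in parental cells was −0.40. H3F3B read 11.09, 10.83 and 11.03 in parental and 10.80, 10.35 and 10.48 in knockout cells, also without overlap, and fell by 0.44 (limma adjusted p = 0.0279). H2AFV was at 7.56, 7.29 and 7.36 in knockout cells, −0.35 ± 0.080 from parental (limma adjusted p = 0.0172). H2AFY was at 11.09, 10.97 and 11.03, lower by −0.24 ± 0.060 (limma adjusted p = 0.0237), beside −0.28 for estradiol in parental cells. H1FX read 8.27, 8.26 and 8.06 in knockout cells, a difference of −0.37 ± 0.098 (limma adjusted p = 0.0311). These falls of H3F3B, H2AFV, H2AFY and H1FX passed under 14, 17, 15 and 15 of the 21 alternatives. All 4 calls were lost on leaving out untreated parental replicate 2, or untreated knockout replicate 2 or 3. In the fit of 10 arrays the differences are the same, and adjusted p was 0.000692 for H2AFX and 0.00497, 0.00564, 0.0151 and 0.00826 for these 4 (limma).

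H1F0 was lower on every knockout array, by −0.18 ± 0.060, but missed the threshold (limma adjusted p = 0.0697, and 0.0576 without the 2 arrays). H2AFJ differed by −0.21 ± 0.10 with overlapping groups (limma adjusted p = 0.229). H2AFZ and H3F3A differed by −0.07 ± 0.075 and −0.15 ± 0.062 (limma adjusted p = 0.617 and 0.144). In the HIST2 cluster the differences of HIST2H2AC and HIST2H2BE were −0.27 ± 0.073 and −0.36 ± 0.097 (limma adjusted p = 0.0331 and 0.0332). They passed under 13 and 15 of the 21 alternatives (limma adjusted p = 0.0187 and 0.00449 without the 2 arrays). Both calls were lost on leaving out untreated parental replicate 1 or 2, or any untreated knockout array. HIST3H2A, an H2A gene outside the main clusters, read 7.71, 7.56 and 7.55 in parental and 7.32, 7.31 and 7.34 in knockout cells. It missed the threshold with all arrays (limma adjusted p = 0.0605) and passed without the 2 (−0.28 ± 0.080, limma adjusted p = 0.0199), as did HIST2H2AA4 (−0.31 ± 0.10, limma adjusted p = 0.0429). By the sign of the difference 6 of the 18 tested HIST1 genes were lower in knockout cells, against 6 of the 7 HIST2 genes and 59% of all tested genes.

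A few members were higher in knockout cells once the 2 arrays were left out. H2AFY2, HIST1H4C, which encodes H4, and HIST1H2BD, an H2B gene that also makes polyadenylated transcripts, did so with estradiol, and HIST1H4H, also encoding H4, with them. With all arrays 0 histone genes differed between the lines under estradiol by limma, and 0 of all tested genes were called in either direction. At an unadjusted p under 0.05 there was 1 of 36 histone genes, against 1064 of all 19670 tested genes. Without the 2 arrays 4 histone genes were called higher and 0 lower, against 4.96% higher and 4.83% lower. With estradiol HIST1H4C was at 7.30, 7.40 and 7.69 on the parental arrays and 7.50, 7.94 and 7.75 on the knockout arrays. HIST1H2BD was at 7.87, 7.86 and 8.36 and at 7.81, 8.28 and 8.23. HIST1H4H was at 7.15, 6.98 and 7.30 and at 7.10, 7.40 and 7.31. For each of these genes, as for H2AFY2, the array labelled parental estradiol replicate 3 lay among or near the knockout arrays, and the array labelled knockout estradiol replicate 1 below the other knockout arrays. The genes were picked by calls made without these 2 arrays, so this placing follows from the choice and is no further check of the labels.

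Without those arrays the differences with estradiol were 0.55 ± 0.086 for H2AFY2, 0.49 ± 0.093 for HIST1H4C, 0.39 ± 0.078 for HIST1H2BD and 0.29 ± 0.084 for HIST1H4H (2 arrays a group; limma adjusted p = 0.000372, 0.00193, 0.00327 and 0.0356). Untreated cells, to which neither array belongs, showed the same direction on every array. H2AFY2 was higher by 0.31 and HIST1H4C by 0.25 in untreated knockout cells. Both passed in the fit without the 2 arrays (limma adjusted p = 0.00429 and 0.0259) and not in the fit with them, which estimated a larger spread (limma adjusted p = 0.315 and 0.177). HIST1H2BD and HIST1H4H were higher by 0.18 and 0.14 and passed in neither fit (limma adjusted p = 0.0613 and 0.172 without the 2 arrays).

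**Figure D4:**
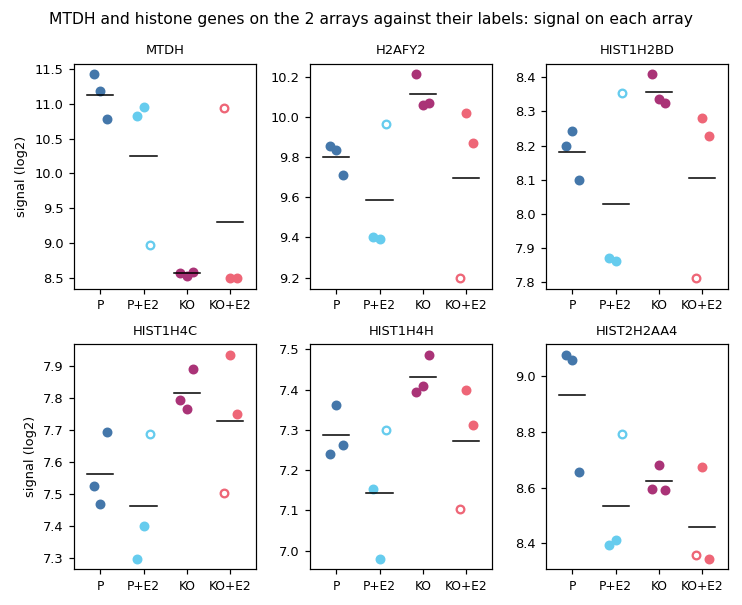
Signal (log2, vertical axis, its range set for each gene) of MTDH and 5 histone genes on each array, in parental (P) and knockout (KO) cells without and with estradiol (E2). Points are arrays, black lines are means of 3 arrays, and open points are the 2 arrays whose MTDH level goes against their label. The open parental point lies above the filled ones in all 5 histone panels, for example at 9.96 against 9.40 and 9.39 for H2AFY2. These 5 genes were picked by calls made without the 2 arrays, so the panels are no further check of the labels.

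Genes that act on histones were read from 3 lists, whose counts stand beside the shares of all tested genes called. In untreated knockout cells those shares were 8.63% lower and 2.31% higher (13.6% and 5.98% without the 2 arrays), and for estradiol in parental cells 5.87% and 1.12% (9.14% and 1.61%). Of 16 tested genes for histone mRNA transcription and processing, 3 were lower and 0 higher in untreated knockout cells, and 6 and 0 without the 2 arrays. The 3 were SNRPD3, a core protein of small nuclear RNPs (−0.63), CCNE1, the cyclin E1 that activates histone transcription with CDK2 (−0.44), and CPSF2, part of the cleavage complex (−0.32; limma adjusted p = 0.00252, 0.0284 and 0.0229). SLBP, which binds the stem-loop, was lower by −0.25 in the same comparison and passed in the fit without the 2 arrays only (limma adjusted p = 0.0317). The list's median was −0.18, against −0.03 over all tested genes. With estradiol in parental cells 2 of the 16 fell, SYMPK and SNRPD3, both by 0.28, and 0 rose; without the 2 arrays SYMPK alone fell (−0.31, limma adjusted p = 0.0168).

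Of 27 tested genes listed as histone chaperones and deposition factors, 9 were lower and 0 higher in untreated knockout cells, and 11 and 0 without the 2 arrays. The list's median was −0.19, against −0.03 over all tested genes. The genes called included ASF1B (−0.39) and NASP (−0.31), which handle newly made histones, and NAP1L4 (−0.39), a nucleosome assembly protein (limma adjusted p = 0.00720, 0.0197 and 0.00599). CENPA (−0.36, limma adjusted p = 0.0115) was in the list as well, but encodes the H3 histone of centromeres and not a chaperone. Estradiol in parental cells lowered 4 (ASF1B by −0.50, HJURP, DAXX and CENPA) and raised 1, NAP1L4. The counts were the same without the 2 arrays, where CENPA missed the threshold (limma adjusted p = 0.0665) and SUPT16H, part of the chaperone FACT, passed (limma adjusted p = 0.0272). NAP1L4 rose by 0.53 in parental and 0.87 in knockout cells (limma adjusted p = 0.000431 and 5.12e-06), and RBBP7, a histone-binding subunit, rose by 0.32 in knockout cells (limma adjusted p = 0.0462) but not in the fit without the 2 arrays.

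DNA replication genes, with which replication-dependent histones are made in S phase, were counted beside them. Of 40 tested, 11 were lower and 0 higher in untreated knockout cells, and 17 and 0 without the 2 arrays, among them RRM2 (−0.69), GMNN (−0.36), MCM6 (−0.28) and TK1 (−0.41). Estradiol in parental cells lowered 6, among them TK1 (−0.59), RRM2 (−0.58), TOP2A (−0.39) and LIG1 (−0.24), and raised 0. Without the 2 arrays it lowered 6, LIG1 not among them, and raised 1, UHRF1 (0.46; limma adjusted p = 0.00316). In knockout cells estradiol raised UHRF1 (0.50; limma adjusted p = 0.0311) and lowered 0 with all arrays, and without the 2 it raised UHRF1 and lowered TK1 (−0.33; limma adjusted p = 0.0357), against backgrounds of 1.18% higher and 2.69% lower with all arrays and 2.54% and 4.26% without the 2. The list's medians were −0.21, −0.17 and −0.03 in these comparisons, beside −0.01, −0.07 and −0.04 for the HIST genes and −0.03, −0.05 and −0.02 over all tested genes. Most tested HIST genes lay near the table's median. For the 12 HIST genes left by the filter at the 67th percentile the medians were −0.19, −0.17 and −0.11, beside −0.08, −0.09 and −0.04 over all genes so filtered. The part of replication in the histone values was not tested.

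Gene sets other than histones were also compared between arrays. On the untreated parental arrays, mean deviations from each gene's mean over 12 arrays were 0.23, 0.23 and 0.10 for the replacement histones, 0.07, 0.08 and 0.03 for the HIST genes, 0.17, 0.20 and 0.12 for DNA replication genes and 0.07, 0.06 and 0.01 for all tested genes. On the other 9 arrays they ranged from −0.13 to 0.07 for the replacement histones, −0.10 to 0.07 for the HIST genes, −0.19 to 0.02 for DNA replication genes and −0.08 to 0.03 for all tested genes. Replicates 1 and 2 of the untreated parental cells were thus highest for all tested genes, and replicate 3 lay within the range of the other arrays. The untreated parental upper quartiles were 7.77, 7.76 and 7.69, against 7.57 to 7.71 on the other arrays. The summed log2 level of 8 entries of epithelial markers was highest in untreated parental cells, 86.8 to 88.9 against 82.4 to 85.7 in the other groups. These entries held EPCAM also under its older symbol, TACSTD1. When all arrays were given the same distribution by quantile normalization, the histone genes that fell with estradiol in parental cells numbered 4 (H1F0, H1FX, HIST1H1C and HIST2H2AC), those that fell on average over both lines 3, and those lower in untreated knockout cells 2 (H2AFX and H2AFV). The median of the replacement histones was then −0.15 for estradiol in parental cells and −0.11 in untreated knockout cells. The same setting changed the split of all called genes from 221 higher and 1155 lower to 415 and 471 for estradiol in parental cells, and from 454 and 1698 to 883 and 699 in untreated knockout cells. Leaving out untreated parental replicate 2 reduced the counts of histone genes to 2 for estradiol in parental cells and 1 in untreated knockout cells. For estradiol in parental cells the count was also 2 without parental estradiol replicate 2, 3 without untreated parental replicate 1 and 5 without parental estradiol replicate 1. In untreated knockout cells it was also 1 without untreated knockout replicate 2 or 3, and 2 without untreated parental replicate 1.

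**Figure D5:**
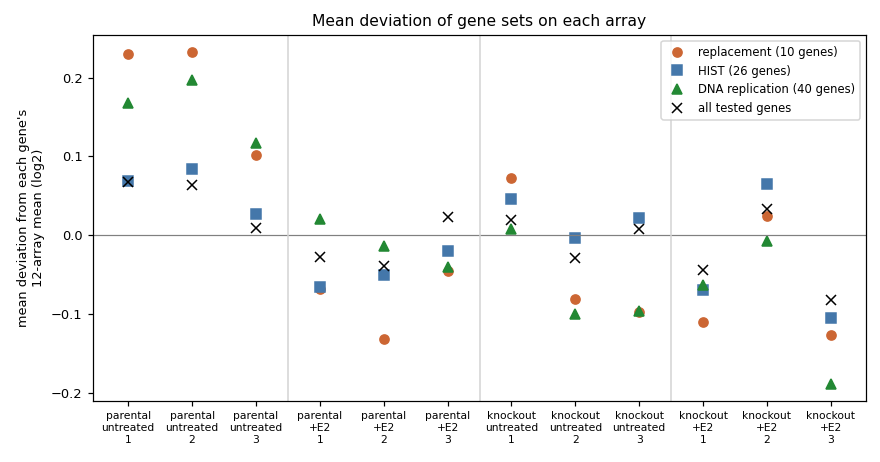
Mean deviation of each gene from its mean over the 12 arrays (log2, vertical axis) for 10 replacement histones, 26 HIST genes, 40 DNA replication genes and all 19670 tested genes on each array, in group and replicate order (+E2, with estradiol). The replacement histones reach 0.23 on untreated parental replicates 1 and 2, where all tested genes stand at 0.07 and 0.06.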

How the data were processed

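RNA was measured on 12 arrays of ECC1 cells by Illumina's direct hybridization assay, per the labels' protocols. The table deposited by the authors holds log2 values, 1 per identifier and array, with 0 missing. Background correction, normalization and the combination of probes are not given in the sources used here, and depth has no meaning for arrays, so the 3 arrays a group limit the precision. Groups came from the sample titles. The values were kept as deposited and tested with limma 3.58.1 (R 4.3.3), with 1 mean per group, 6 contrasts and Benjamini-Hochberg adjustment over the 19670 genes above the table's median on at least 3 arrays; the fit was tested on simulated data. The histone genes and all gene lists were chosen with earlier results of these data known. Named were the tested replacement histones, HIST genes called in either fit, the members of lowest and highest SD and up to 4 called genes a list; HIST1H1A, HIST1H2AM and HIST2H2AA3 were named after their values were seen. Same-numbered arrays correlated from −0.499 to 0.647 in their deviations, above 0.1 in 6 of 18 pairs, so the numbers were not taken as pairs. Promoters came from RefSeq, with members matched by symbol or older symbol. Alternatives were other filters, quantile normalization, median centring, another prior, array weights, a replicate block, leaving out the 2 arrays and leaving out each array. Leaving out an array of a group outside a comparison keeps its difference and changes only the shared spread, so such an alternative tests a call little.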

Additional observations from a re-analysis of the deposited data

Results flagged for a closer look

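H1F0 and HIST1H2AM stood out because, without the 2 arrays against their labels, every array of one condition differed in one direction and every array of the other in the opposite one. H1F0 was lower on every knockout array than on every parental array without estradiol and higher on every one with it, and its interaction was 0.23 ± 0.10 (limma adjusted p = 0.321). HIST1H2AM, an H2A gene of the HIST1 cluster, was higher with estradiol on every parental array and lower on every knockout array. By line it was higher on every untreated knockout array and lower on every one with estradiol. Its interaction was −0.18 ± 0.098 (limma adjusted p = 0.444). The difference itself missed the threshold for both genes, and each estradiol group held 2 arrays here. The share of all tested genes with such a pattern is not given here, so it is not shown to be particular to these genes. HIST1H2AM lay at the table's median, with a mean of 6.80.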

How the results depend on the processing

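Counts of histone genes called moved by over 1.5 times under these settings. In untreated knockout against parental cells (7 called) they were 2 with quantile normalization, 12 with array weights, 11 without the 2 arrays and 1 to 8 when leaving out each array. With estradiol (0 called) they were 4 without the 2 arrays and 5 with quantile normalization added, and 0 when leaving out each array. For estradiol in parental cells (8 called) the count was 4 with quantile normalization and 2 to 10 when leaving out each array. For the mean of both lines (7 called) it was 3 with quantile normalization, 12 with array weights and 3 to 10 when leaving out each array, with 3 without untreated parental replicate 2 and 4 without untreated knockout replicate 1 or knockout estradiol replicate 3. Quantile normalization turned the split of all called genes in that comparison from 363 higher and 1723 lower to 846 and 1021. The cause of these changes was not tested; leaving out an array also leaves fewer samples. The replicate block gave 8, 0, 9, 0, 0 and 7 calls for the line without and with estradiol, estradiol in parental and knockout cells, the interaction and the mean, within 1.5 times of the counts without it. It ended the call of H2AFY for the mean of both lines (limma adjusted p = 0.0516), gave HIST3H2A one in untreated knockout cells (limma adjusted p = 0.0436) and changed no other call of the genes named. Differences between the lines with estradiol turned to −0.0520 for H2AFY2 without knockout estradiol replicate 2 (range over arrays left out −0.0520 to 0.359), and for HIST1H2BD to −0.00265 without parental estradiol replicate 1, −0.00585 without parental estradiol replicate 2 and −0.0102 without knockout estradiol replicate 2 (range −0.0102 to 0.241), none of the turned values past the threshold. Of the other values of single genes under alternatives, 618 kept their direction and side of the threshold, 90 lost the call and 44 gained one. Signals near the table's median, where most HIST genes lie, limit what can be seen of them.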
